A study of Homo sapiens with 10 samples.

Results

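The positions at which tagged EMBOW and WDR5 were called on chromatin were set side by side, as 93102 EMBOW-F summits and 17655 wild-type (WT) WDR5 summits on chromosomes 1 to 22 and X. A summit is the base at which a called peak of ChIP-seq reads is highest. All summits on these chromosomes were taken, which is 110757 of the 131858 summits in the 3 lists of the series, and the 41 EMBOW-F and 5 WT summits on chromosome Y were left out. The EMBOW-F library came from HEK293T cells, a human embryonic kidney line, that stably express tagged EMBOW (EMBOW-FH in the labels) and were precipitated on anti-FLAG beads. The WT library came from wild-type HEK293T cells, precipitated with an antibody to WDR5. A second WDR5 list, from HEK293T cells in which EMBOW was knocked out (KO, 21053 summits), is given beside them to show how far 2 lists of the same protein lie apart. All 3 libraries were made from nuclei digested with micrococcal nuclease. The promoter that drives the tagged protein, and whether the lines are clones, are not given in the sources used here. Summit lists hold no expression values, so the cell line label could not be checked against markers. Each list is 1 library, so no difference below has a replicate check, no test between conditions was possible, and each interval (exact binomial, 95%) covers counting error only. Antibody and cell line differ between the 2 libraries and cannot be told apart from the protein, read depth is unknown, and values with the lists at equal length are given where they moved a result.

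WDR5 is a WD40-repeat protein that serves as a scaffold of the COMPASS-type complexes, which methylate histone H3 on lysine 4 at active promoters. It also helps to recruit MYC to chromatin and is known to occupy the promoters of ribosomal protein genes. EMBOW is a microprotein translated from an alternative reading frame of the SCRIB transcript and binds WDR5. Promoters of broadly used genes often lie in CpG islands, stretches with many CG dinucleotides, whereas gene-poor regions of the genome are rich in A and T.

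The sequences at gene starts where each list scored highest, among genes with a start window, are shown to let their CG content be compared. The windows below run from 250 bases before a protein-coding gene's start to 50 bases from it (RefSeq, GRCh38.p14), 5′ to 3′ on the gene's strand, with every CG dinucleotide in capitals. For each list they are the 3 genes with the highest-scored summit within 250 bp of a start, among genes with a start window. Such windows were at hand for 15812 of the 19974 protein-coding genes, so higher-scored summits at other genes are not ranked here. The EMBOW-F genes were MARCHF1 (a membrane ubiquitin ligase of immune cells), DPP10 (a potassium channel accessory protein of neurons) and OR2A2 (an olfactory receptor).
MARCHF1 (chr4:164383468-164383767, - strand): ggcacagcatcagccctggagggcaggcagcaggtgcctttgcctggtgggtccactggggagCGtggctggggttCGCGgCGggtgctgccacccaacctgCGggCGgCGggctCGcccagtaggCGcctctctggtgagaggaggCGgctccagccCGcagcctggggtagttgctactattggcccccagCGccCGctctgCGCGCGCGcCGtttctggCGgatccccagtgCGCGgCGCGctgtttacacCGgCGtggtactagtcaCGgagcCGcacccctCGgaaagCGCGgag
DPP10 (chr2:115064323-115064622, + strand): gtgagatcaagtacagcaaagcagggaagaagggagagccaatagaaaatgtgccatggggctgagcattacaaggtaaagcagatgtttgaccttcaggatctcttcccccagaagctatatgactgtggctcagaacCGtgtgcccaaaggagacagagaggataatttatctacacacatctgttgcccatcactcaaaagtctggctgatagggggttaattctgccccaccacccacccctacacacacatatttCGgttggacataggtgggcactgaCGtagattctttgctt
OR2A2 (chr7:144109333-144109632, + strand): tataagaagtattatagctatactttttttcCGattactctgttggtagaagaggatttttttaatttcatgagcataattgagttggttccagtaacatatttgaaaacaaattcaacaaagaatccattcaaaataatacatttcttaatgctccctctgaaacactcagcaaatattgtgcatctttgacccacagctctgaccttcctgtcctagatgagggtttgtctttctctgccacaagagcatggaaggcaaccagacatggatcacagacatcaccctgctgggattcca
The WT WDR5 genes were RPL35 (a protein of the large ribosomal subunit), EEF2 (translation elongation factor 2) and RNF220 (a ubiquitin ligase).
RPL35 (chr9:124861908-124862207, - strand): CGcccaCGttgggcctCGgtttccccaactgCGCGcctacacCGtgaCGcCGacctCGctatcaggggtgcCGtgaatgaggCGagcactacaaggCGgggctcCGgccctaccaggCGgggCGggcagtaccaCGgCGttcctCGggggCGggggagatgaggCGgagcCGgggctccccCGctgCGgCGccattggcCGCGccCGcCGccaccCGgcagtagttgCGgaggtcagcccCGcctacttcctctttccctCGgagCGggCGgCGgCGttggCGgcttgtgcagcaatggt
EEF2 (chr19:3985414-3985713, - strand): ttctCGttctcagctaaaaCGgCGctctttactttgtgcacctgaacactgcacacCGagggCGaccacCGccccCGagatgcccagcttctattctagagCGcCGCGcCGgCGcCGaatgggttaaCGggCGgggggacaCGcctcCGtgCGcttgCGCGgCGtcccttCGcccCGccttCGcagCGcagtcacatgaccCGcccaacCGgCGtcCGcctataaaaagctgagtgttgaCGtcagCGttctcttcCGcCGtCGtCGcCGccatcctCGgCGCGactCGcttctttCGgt
RNF220 (chr1:44631718-44632017, + strand): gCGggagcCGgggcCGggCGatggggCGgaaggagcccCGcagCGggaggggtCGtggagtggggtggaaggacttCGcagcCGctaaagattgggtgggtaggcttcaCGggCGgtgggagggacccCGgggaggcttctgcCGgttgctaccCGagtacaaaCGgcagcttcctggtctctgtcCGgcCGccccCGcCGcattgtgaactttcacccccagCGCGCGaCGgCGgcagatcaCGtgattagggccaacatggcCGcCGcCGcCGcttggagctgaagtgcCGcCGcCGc
The 3 WDR5 windows held 37, 41 and 33 CG dinucleotides, in the order printed. The EMBOW-F windows held 30 at MARCHF1, 3 at DPP10 and 1 at OR2A2, so the 3 EMBOW-F genes were not alike in this. The EMBOW-F summits lay at −247 bp from the start of MARCHF1, −168 bp from that of DPP10 and 70 bp from that of OR2A2, where a negative offset is upstream. The WT summits lay downstream of the starts of RPL35, EEF2 and RNF220, at 159, 138 and 148 bp. The −log10 q scores of the authors' peak caller were 7.46, 6.66 and 6.40 at the EMBOW-F genes, at ranks 2995, 4634 and 6290 of that list, and 1473, 1367 and 1289 at the WT genes, at ranks 1, 2 and 3.

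Over all 22132 start windows of protein-coding genes in the RefSeq promoter table, the medians of the 2 lists differed. (The table covers 15812 genes, and chromosome 8 was not analysed here for starts.) The 11060 windows with a WT WDR5 summit within 1 kb of the start had a median of 29 CG dinucleotides and a G+C content of 67.7%. The 192 windows with an EMBOW-F summit had a median of 3 and a G+C content of 45.7%. The medians over all windows were 21 and 62.3%. The spread was wide in the EMBOW-F group, whose middle 50% ran from 1 to 12 CG dinucleotides, against 22 to 36 in the WT group. The letters TATAAA, searched on both strands, stood in 22.4% of the EMBOW-F windows (16.7 to 29.0%), in 4.28% of the WT windows (3.91 to 4.67%) and in 9.46% of all windows. A match is only a run of letters and does not show a working TATA box, and windows of alternative starts of 1 gene overlap each other.

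WDR5 summits gathered just downstream of gene starts, where few EMBOW-F summits were called. Most WT summits, 58.4% (57.6 to 59.1%), had a protein-coding gene start at most 1 kb away, and 74.6% of these (73.7 to 75.5%) were downstream of it. The median offset of all WT summits within 1 kb of a start was 169 bp (166 to 172). The KO list gave a median offset of 168 bp (165 to 170). Of the EMBOW-F summits 192 of 90715, or 0.212% (0.183 to 0.244%), lay within 1 kb of a start. Their median offset, 171 bp (77 to 266), was close to that of WT, and 62.0% of them (54.7 to 68.9%) were downstream. The middle 50% of their offsets ran from −205.5 to 496 bp. The WT range was narrower, from −16 to 306 bp.

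A total of 15 protein-coding genes had both an EMBOW-F and a WT summit within 1 kb of a start, of 172 genes with an EMBOW-F summit there. Among all 15812 genes with a start window, 8650 had a WT summit there. WT summits were thus less frequent at starts with an EMBOW-F summit than at starts in general. The highest EMBOW-F score among the 15 genes with both was 4.20, at ZNF595. The 15 also included E2F2 (a cell cycle transcription factor), EZH2 (the Polycomb methyltransferase), TOP2B (a DNA topoisomerase) and HNRNPDL (an RNA-binding protein). The EMBOW-F scores at these genes were 3.86, 2.39, 3.24 and 2.70. The 22 start windows with both summits had a median of 32.5 CG dinucleotides, and the 170 EMBOW-F windows without a WT summit a median of 3.

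In distance to genes the 2 lists were far apart. The median EMBOW-F summit lay 329 kb (326 to 332) from the nearest end of a protein-coding gene. The median WT summit lay 563 bp (547 to 580) from one, and the median KO summit 706 bp (683 to 732). A grid of every 1000th base of the same chromosomes had a median of 63.7 kb, so EMBOW-F summits were farther from gene ends than an evenly spread set, and WDR5 summits far nearer. The grid takes in assembly gaps, where no read can map. EMBOW-F summits outside genes lay at a median of 384 kb (380 to 388) from the nearest gene, with the middle 50% between 162 and 698 kb. The same median was 2.23 kb (1.85 to 2.82) for WT summits outside genes and 122 kb for the grid.

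The class that held most EMBOW-F summits was open intergenic space, and the class that held most WDR5 summits was the gene end. The class 100 kb to 1 Mb outside protein-coding genes held 60.6% of EMBOW-F summits (60.3 to 60.9%), 3.44% of WT summits (3.17 to 3.72%) and 24.6% of grid positions. Over 1 Mb away lay 10.5% of EMBOW-F summits (10.3 to 10.7%), 1.18% of WT summits (1.02 to 1.35%) and 6.88% of grid positions. Within 10 kb outside a gene, and over 1 kb from its end, EMBOW-F summits were again fewer (1.64%, 1.56 to 1.72%) than WT summits (4.84%, 4.53 to 5.16%) or grid positions (6.32%). The class within 1 kb of a gene end held 61.3% of WT summits (60.6 to 62.1%), 0.378% of EMBOW-F summits (0.340 to 0.420%) and 2.396% of grid positions. Of the 6 classes this was the one where the 2 WDR5 lists differed most, with 55.8% in KO (55.2 to 56.5%).

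**Figure D1:**
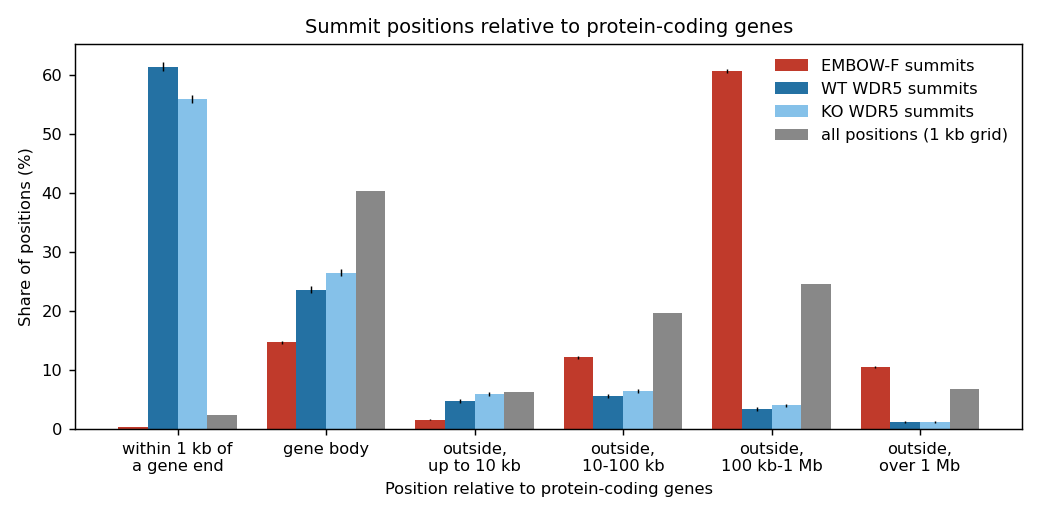
Share of summits (y axis, percent) in 6 classes of position relative to protein-coding genes (x axis) for the EMBOW-F, WT WDR5 and KO WDR5 lists and for a grid of every 1000th base; error bars are exact 95% intervals for counting error. The tallest EMBOW-F bar is the class 100 kb to 1 Mb outside genes (60.6%), and the tallest bars of both WDR5 lists are the gene-end class (61.3% and 55.8%).

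Inside genes the hosts of the 2 lists differed in size. The protein-coding genes that held EMBOW-F summits had a median length, counted once per summit, of 562 kb (552 to 576). Those that held WT summits had a median of 41.7 kb (40.3 to 43.1), those with KO summits 41.5 kb (40.5 to 42.8), and those under grid positions 178 kb. Host genes of 500 kb or longer took 54.3% of EMBOW-F summits inside genes (53.5 to 55.1%), 2.98% of the WT summits (2.69 to 3.28%) and 20.7% of grid positions inside genes. Host genes under 20 kb took 2.19% of the EMBOW-F summits (1.95 to 2.44%), 30.1% of the WT summits (29.3 to 30.9%) and 5.44% of the grid positions. WDR5 summits over 1 kb from both gene ends also lay in shorter genes, with a median host of 63.1 kb (59.3 to 67.5) in WT against 563 kb for EMBOW-F, so the gap was also there without the gene-end summits.

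The share of summits in gene bodies themselves, over 1 kb from the ends, was 14.7% (14.5 to 15.0%) in EMBOW-F, 23.6% (22.98 to 24.24%) in WT and 40.2% of grid positions. This difference of −8.88 percentage points turned to 8.88 points in favour of EMBOW-F when all annotated genes, long non-coding RNA genes and pseudogenes among them, were counted in place of the protein-coding ones. Of the EMBOW-F summits outside protein-coding genes 19.7% lay in a long non-coding RNA gene, against 28.0% of the WT summits and 20.7% of the grid positions outside protein-coding genes.

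Taken gene by gene, the share of genes with an EMBOW-F summit rose with gene length. Among all 19974 protein-coding genes 1032 held an EMBOW-F summit between their ends (5.17%) and 10200 held a WT summit (51.1%; KO 54.8%). Of the 69 genes of 1 Mb or longer 53 held an EMBOW-F summit, and of the 245 genes between 500 kb and 1 Mb 122 did. Of the 8983 genes under 20 kb only 206 did, or 2.29%. Longer genes offer more bases, but the density rose too, from 0.430 EMBOW-F summits per 100 kb in genes under 20 kb to 3.68 in genes of 1 Mb or longer. The lowest density, 0.258, was in genes of 20 to 100 kb. WT summits fell over the same classes from 5.80 to 0.0950 per 100 kb.

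**Figure D2:**
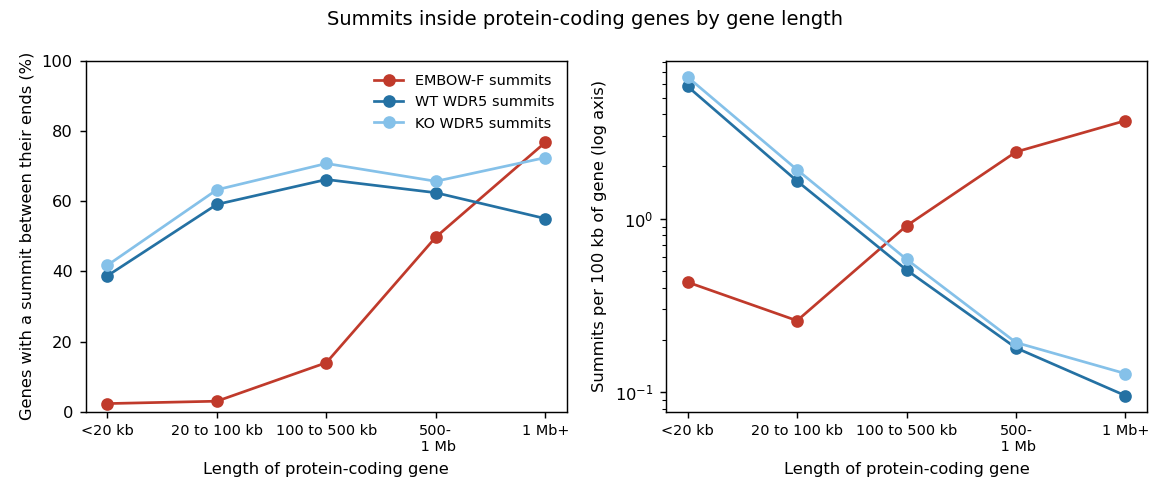
Left, percentage of protein-coding genes with at least 1 summit between their ends; right, summits per 100 kb of gene (log axis), both by gene length class (x axis), for the 3 lists, 1 library each. EMBOW-F goes from 0.430 to 3.68 summits per 100 kb between the shortest and longest class, with its lowest value at 20 to 100 kb, and WT WDR5 from 5.80 to 0.0950.

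The genes with the most EMBOW-F summits were long, and several encode proteins of neurons. CNTNAP2, a neurexin-family adhesion protein on chromosome 7 that spans 2304 kb, held 349 EMBOW-F summits and 2 WT summits. SPAG16 (a protein of the sperm flagellum) held 307 and 2, SGCD (delta-sarcoglycan of muscle) 268 and 0, DPP10 224 and 0, and GPC5 (a glypican) 216 and 3. GRM7 (a metabotropic glutamate receptor) held 192 EMBOW-F summits, NRG3 (a neuregulin) 189, KHDRBS2 (an RNA-binding protein) 184 and THSD7B 180, and these 4 genes held 0 WT summits. Per 100 kb, among genes of at least 100 kb, PTN (the growth factor pleiotrophin) led with 55.0 EMBOW-F summits. Next was CHRM2 (a muscarinic acetylcholine receptor) with 46.8. FUT9 (a fucosyltransferase) had 36.6 and TACR3 (the neurokinin B receptor) 33.6. These 4 genes had 0 summits in both WDR5 lists.

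Length did not fix the count. RBFOX1, a neuronal splicing regulator and the longest protein-coding gene in the table at 2.47 Mb, held 0 EMBOW-F summits. LRP1B held 2 in 1.90 Mb, MACROD2 held 1 in 2.06 Mb, and CSMD1 held 8 in 2.06 Mb. RBFOX1 and MACROD2 lie on chromosomes 16 and 20, which were sparse as a whole, at 4.68 and 1.97 EMBOW-F summits per Mb. LRP1B and CSMD1 lie on chromosomes 2 and 8, at 42.8 and 16.5 per Mb. PTPRD (a neuronal receptor phosphatase) held 134 in 2.30 Mb, DLG2 (a postsynaptic scaffold) 120 in 2.17 Mb and DMD (dystrophin) 31 in 2.22 Mb. No WT count among the 10 longest genes was above 2.

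The 10 genes listed with the most WT WDR5 summits held 0 EMBOW-F summits each. The last places were tied at 7 WT summits and filled in alphabetical order. That order left out PCDH9, which held 7 WT and 5 EMBOW-F summits. BCOR (a transcriptional corepressor on chromosome X, 126 kb) led with 28 WT and 19 KO summits, which also made it the densest of the long genes at 22.2 WT summits per 100 kb. HOXA3 and HOXC4 (homeobox regulators of body pattern) held 14 WT summits each, within 45.6 and 39.1 kb. GSE1 held 14, GPHN (gephyrin) 12, and RANBP2 (a nuclear pore protein), SAMD11 and the HOXA10-HOXA9 readthrough gene 8 each. ABR and AUTS2 held 7. BRF1 (an RNA polymerase III factor), PTPRS, NOL4L and SATB1 (a chromatin organiser) followed BCOR in density, at 5.64, 4.43, 4.22 and 3.99 per 100 kb.

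Where in a long gene the summits fell also differed. In host genes of 100 kb or longer with a known strand, cut into 5 equal parts from 5′ to 3′, the 5′-most part held 73.6% of WT summits (71.9 to 75.2%). The 3′-most part held 5.43% (4.62 to 6.32%). EMBOW-F summits were spread nearly evenly, from 17.5% (16.8 to 18.2%) in the 5′-most part to 22.5% (21.7 to 23.3%) in the middle part and 17.8% (17.1 to 18.5%) in the 3′-most part.

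Fixed gene families fell on different sides, and each count is read beside all protein-coding genes, of which 5.17% held an EMBOW-F summit between their ends and 51.1% a WT summit. Olfactory receptors, the odorant receptors of the nose, held an EMBOW-F summit at 114 of 392 genes (29.1%) and a WT summit at 2. OR2L13, OR6N1 and OR9Q1 held the most EMBOW-F summits, 19, 14 and 12, each with 0 WT summits. Clustered protocadherins, neuronal adhesion proteins whose annotated genes overlap and so share summits, held one at 36 of 53 genes (WT 3), with 19 at PCDHA1. Long neuronal adhesion and synapse genes held one at 55 of 64 (WT 22), but the median member spans 1108 kb, and 53 of 69 genes of 1 Mb or longer held one. ZNF genes lay near the background on both sides, with an EMBOW-F summit at 34 of 509 (6.68%) and a WT summit at 275 (54.0%). ZNF385D and ZNF804B, with 148 and 143 EMBOW-F summits, carried most of the 438 in that family. Taste, vomeronasal and defensin genes held an EMBOW-F summit at 5 of 67 (7.46%), 12 of the 16 summits at TAS2R1, and a WT summit at 0. Keratin-associated protein genes held an EMBOW-F summit at 1 of 94, KRTAP8-1, and a WT summit at 0.

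The next 4 families held WT summits in most members and EMBOW-F summits in at most 1. Cytosolic ribosomal protein genes held a WT summit between their ends at 85 of 88 (96.6%) and an EMBOW-F summit at 1, RPSA2. Subunits of oxidative phosphorylation held one at 56 of 70 in WT and 0 in EMBOW-F, among them ATP5MC2 and ATP5PF (ATP synthase) and NDUFC1 (complex I) with 3 WT summits each. HOX genes stood at 28 of 39 and 0, COMPASS and WDR5 partner genes at 17 of 23 and 0, with 5 WT summits at SETD1B and 4 at KMT2C, both H3K4 methyltransferases. Replication-dependent histone genes, which are short, were lower and stood at 19 of 69 (27.5%) in WT, below the 51.1% of all genes, and at 0 in EMBOW-F.

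Of 19974 genes, 281 (1.41%) had their start or end no farther than 1 kb from an EMBOW-F summit. A WT summit was as near at 10011 (50.1%) and a KO summit at 10707 (53.6%) of them. Among olfactory receptors 87 of 392 had an EMBOW-F summit there and 1 a WT summit, and among ribosomal protein genes 0 and 83 of 88 did. Among the highest-scored EMBOW-F summits there were those of OR5J2, OR8H3, SCRT1 (a neuronal zinc finger repressor), OR2A25, MARCHF1, CFHR4 (complement factor H related), XIRP2 (a muscle actin-binding protein), OR4A47 and OR2A2. Their scores ran from 10.8 to 6.40, at ranks 801 to 6290, and the nearest WT summit lay between 9482 and 1202495 bp away. The WT genes included RPL35, EEF2, RPL10A, RPL13, RPL5, RPS4X, RACK1 (a ribosome-bound scaffold), CCT7 (a chaperonin subunit) and RPS14, with scores from 1473 to 1143. The nearest EMBOW-F summit to any of these WT summits was 422915 bp away, at RPS14.

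Gene density per megabase ordered the 2 lists in opposite directions. The 3043 megabases were sorted by how many protein-coding genes touched them. The 392 megabases without a gene held 78.5 EMBOW-F summits each on average and 1.02 WT summits. The 1114 with 1 to 4 genes held 45.2 and 2.17, the 819 with 5 to 9 held 10.6 and 5.89, and the 486 with 10 to 19 held 4.24 and 10.7. The 232 with 20 or more held 5.24 and 20.8. The median summit lay in a megabase with 1 gene in EMBOW-F and 11 genes in WT and KO. Of the EMBOW-F summits 33.1% (32.7 to 33.4%) were in megabases without a protein-coding gene, against 2.25% of WT summits (2.04 to 2.48%) and 12.9% of megabases. The gap of 30.8 points shrank to 0.441 when genes of every kind were counted, a count that leaves fewer megabases without a gene. With the same count the gene-end difference did not shrink, and went from −61.0 to −66.5 points.

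In the most gene-dense class most EMBOW-F summits lay in megabases with several olfactory receptor genes. Among the 232 megabases with 20 or more genes, 19 held at least 5 olfactory receptor genes. Those 19 carried 840 of the 1216 EMBOW-F summits, 44.2 per megabase, and 7.16 WT summits per megabase. The other 213 carried 1.77 EMBOW-F and 22.1 WT summits per megabase. This split was made after the values by class had been seen.

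**Figure D3:**
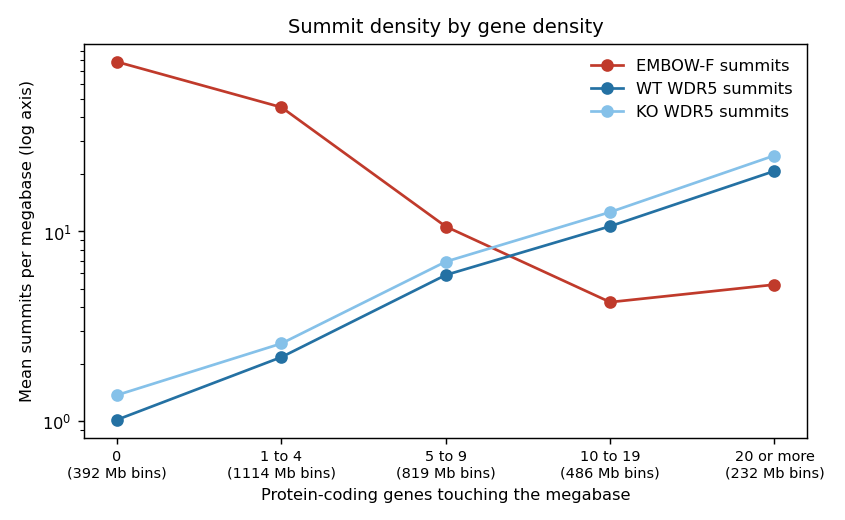
Mean number of summits per megabase (y axis, log) by the number of protein-coding genes that touch the megabase (x axis, with the number of megabases) for the EMBOW-F, WT WDR5 and KO WDR5 lists. EMBOW-F falls from 78.5 to 4.24 and is 5.24 in the densest class, while WT WDR5 rises from 1.02 to 20.8 through every class.

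Few megabases were full in both lists. Both kinds of summit were called in 1081 megabases (35.5%, median 3 genes), EMBOW-F summits without WT summits in 457 (median 1 gene), WT summits without EMBOW-F summits in 1331 (median 9 genes), and neither in 174 (median 0 genes). The 304 megabases fullest in each list, 10% of all 3043, held 65.2% of EMBOW-F summits (64.9 to 65.5%) and 39.0% of WT summits (38.2 to 39.7%). Of the 304 fullest in EMBOW-F, 2 were also among the fullest 10% in WT. Across megabases the summit counts of EMBOW-F and WT had a Spearman rho of −0.49 (n = 3043), and those of WT and KO had 0.924. Neighbouring megabases share regional properties and are not independent, so these are descriptions. The 3 fullest EMBOW-F megabases were chr1:238000001-239000000 with 624 EMBOW-F and 9 WT summits and no protein-coding gene, chr13:83000001-84000000 with 615 and 19 around SLITRK1 (a neuronal adhesion protein), and chr7:145000001-146000000 with 554 and 3 and no gene. The 3 fullest WT megabases, chr19:1000001-2000000, chr17:81000001-82000000 and chr16:30000001-31000000, held 75, 63 and 60 WT summits, 39, 37 and 46 genes, and 0 EMBOW-F summits each.

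Neighbouring EMBOW-F summits were close together and formed long runs. The median distance to the next summit of the same list was 3.27 kb (3.24 to 3.31) in EMBOW-F, 42.8 kb (41.2 to 44.7) in WT and 33.3 kb (31.8 to 35.1) in KO. A longer list has shorter gaps, and with the EMBOW-F list shortened to its 17655 highest-scored summits the median was 9.10 kb (8.79 to 9.39), so the ratio to WT went from 13.1 to 4.71. The WT gaps were spread widely, with 32.8% (32.1 to 33.5%) under 10 kb, 32.9% (32.2 to 33.6%) over 100 kb and the rest between. In EMBOW-F 79.9% (79.7 to 80.2%) were under 10 kb and 2.18% (2.09 to 2.28%) over 100 kb. Gaps under 1 kb were a like share of both, 13.0% (12.8 to 13.2%) and 14.7% (14.2 to 15.3%), but 4.40% (4.10 to 4.71%) in the shortened EMBOW-F list. The 402 EMBOW-F gaps over 1 Mb together spanned 1619 Mb of 3030 Mb, so much of the genome was empty of summits. In WT 582 such gaps spanned 1142 Mb.

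**Figure D4:**
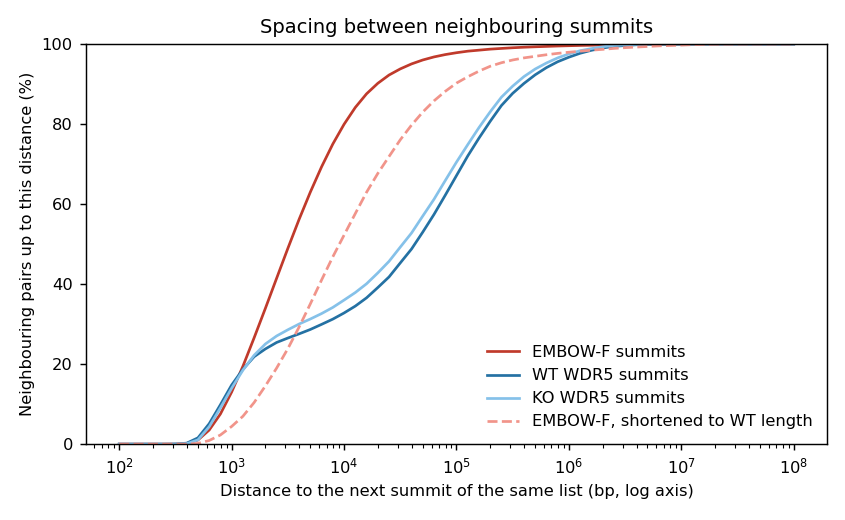
Cumulative percentage of neighbouring summit pairs (y axis) by the distance between them (x axis, log) for the 3 lists and for the EMBOW-F list shortened to its 17655 highest-scored summits. The EMBOW-F curve crosses the middle at 3.27 kb (9.10 kb when shortened) and the WT WDR5 curve at 42.8 kb, after a flatter stretch around 10 kb.

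When summits at most 50 kb apart were linked, and runs of at least 10 summits kept as domains, EMBOW-F gave 890 domains that held 92.6% of its summits (92.4 to 92.8%) in 466 Mb, or 15.4% of the chromosomes' span. WT gave 127 domains with 11.4% of its summits (10.9 to 11.9%) in 22.2 Mb. The EMBOW-F domains had a median length of 305 kb, 125 of them were 1 Mb or longer, and the longest WT domain was 0.497 Mb. The shortened EMBOW-F list still had 64.8% of its summits (64.1 to 65.5%) in 316 domains. The domain rule was chosen after the spacing had been seen.

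The EMBOW-F domains were gene-poor and the WDR5 domains gene-rich. The median EMBOW-F domain touched 0 protein-coding genes, against 10 in WT, and 493 of 890 (55.4%) touched none. The fullest, chr13:80392043-84560992, held 2044 EMBOW-F and 34 WT summits in 4.17 Mb, with SLITRK1 as its one protein-coding gene. A domain on chromosome 5 of 3.31 Mb held 1044 summits and touched 1 protein-coding gene, TENM2 (a teneurin of synapses). One on chromosome 7 held 730 over CHRM2, PTN and DGKI. The fullest WT domains were the HOXA cluster on chromosome 7 (42 WT summits in 141 kb), the HOXC cluster on chromosome 12 (42 in 235 kb) and a group of 29 genes around EEF1G and AHNAK on chromosome 11 (42 in 337 kb). None of these 3 held an EMBOW-F summit.

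Few WDR5 summits lay inside EMBOW-F domains, and a smaller share of those scored high. While these domains cover 15.4% of the span, 3.06% of WT summits (2.81 to 3.33%, 541 summits) and 3.09% of KO summits (2.86 to 3.33%) lay in them. They held 607 of 22132 gene starts (2.74%), counted without chromosome 8. Most WT summits inside the domains were not at gene ends, so the share of summits and the share of starts are unlike measures. Of the gene starts inside them 4.78% (3.22 to 6.79%) had a WT summit within 1 kb, against 51.2% (50.6 to 51.9%) outside. The start windows inside had a median of 3 CG dinucleotides and those outside 21. Of the 541 WT summits inside, 4.81% (3.16 to 6.96%) were at gene ends, and 25.1% (21.5 to 29.0%) had a q of 1e-05 or less. The WT summits outside had 63.1% (62.4 to 63.9%) and 63.0% (62.3 to 63.7%).

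The chromosomes differed far more in EMBOW-F than in WDR5 summits. Per megabase, EMBOW-F ran from 0.937 summits on chromosome 17 to 59.3 on chromosome 13, a 63.3-fold range, and WT from 2.81 on chromosome X to 18.4 on chromosome 19, a 6.57-fold range. A chromosome's share of EMBOW-F summits was over 2 times its share of WT summits on 4 of 23 chromosomes (17.4%), which were 13 (3.12 times), X (2.47), 4 (2.18) and 5 (2.06). It was under 1/2 on 8 of 23 (34.8%). Chromosome 17 held 6.51% of WT and 0.0838% of EMBOW-F summits, which is 77.7-fold less, and chromosome 19 held 6.12% and 0.242%, 25.3-fold less. Chromosomes 20, 22, 16 and 15 were 18.3, 10.7, 10.1 and 8.48-fold lower, and chromosomes 14 and 21 were 2.35 and 2.03-fold lower. Between KO and WT 0 of 23 shares (0.0%) were past 2-fold, and the ratios ran from 0.869 on chromosome 7 to 1.18 on chromosome 20.

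Summits per megabase followed genes per megabase across the 23 chromosomes in WT (Spearman rho 0.927) and KO (0.904), and went the other way in EMBOW-F (−0.52). The points of a list share 1 library, and no test was made. EMBOW-F also differed between chromosomes when only gene-poor megabases were taken. Within megabases of 0 to 4 genes alone, EMBOW-F ran from 3.71 summits per megabase on chromosome 20 (28 such megabases) and 3.89 on chromosome 17 (18) to 84.6 on chromosome 5 (100) and 90.1 on chromosome 6 (88). Chromosome 13 stood at 83.5, chromosome 18 at 36.6, chromosome 14 at 19.6, chromosome 16 at 9.60 and chromosome 15 at 6.28. In the same megabases WT ran from 0.890 on chromosome X to 5.57 on chromosome 19, which has 7 of them. These values were computed after the chromosome shares had been seen. The class pools megabases of 0 and of 1 to 4 genes, so gene density is not alike within it, and it takes in assembly gaps. The share of its megabases with any EMBOW-F summit ran from 26.0% on chromosome 15 to 89.0% on chromosome X.

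**Figure D5:**
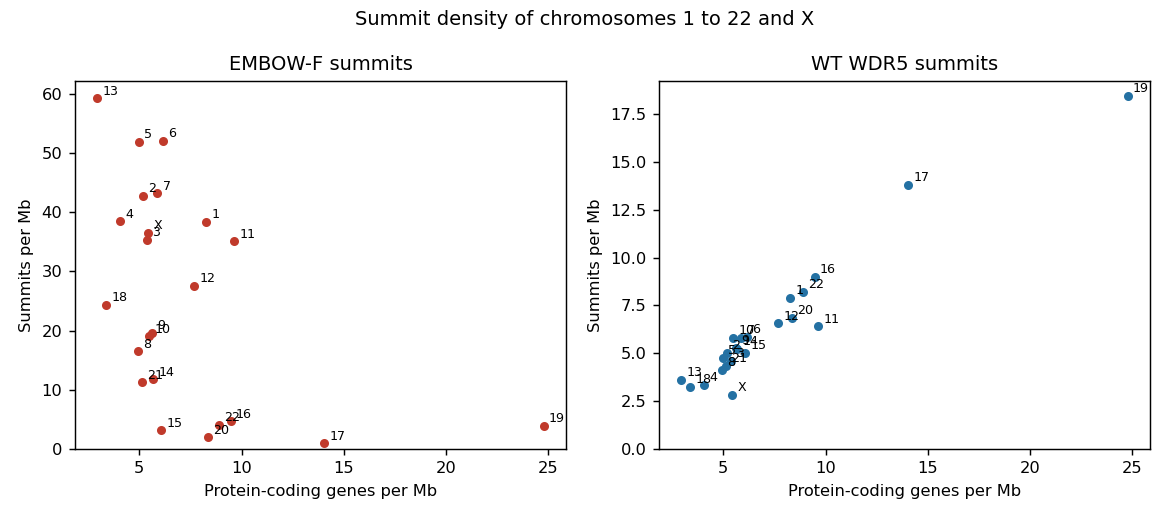
Summits per megabase (y axis) against protein-coding genes per megabase (x axis) for chromosomes 1 to 22 and X, with EMBOW-F on the left and WT WDR5 on the right, 1 point per chromosome. EMBOW-F is highest on chromosome 13 (59.3) and lowest on chromosome 17 (0.937), and WT WDR5 is highest on the gene-dense chromosomes 19 (18.4) and 17.

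The highest-scored EMBOW-F summits stood apart from the rest of the list. The 100 highest had scores from 714 down to 27.7 and lay in 25 megabases, with 26 in chr1:143000001-144000000, 10 in chr16:34000001-35000000, 9 in chr1:125000001-126000000, 8 in chr16:46000001-47000000 and 7 in chr5:49000001-50000000. These megabases lie in the wider regions around the centromeres of chromosomes 1, 16 and 5, where satellite repeats are common. Centromere and repeat positions were not examined here. Of the 100, 59 (48.7 to 68.7%) had a WT WDR5 summit within 500 bp. These 59 were clustered, with 20 in chr1:143000001-144000000 and 7 in chr1:125000001-126000000, and the interval treats them as independent. The share with a WT summit as near was 7.89% (6.21 to 9.85%) at ranks 101 to 1000, 1.12% (0.915 to 1.36%) at ranks 1001 to 10000 and 0.274% (0.240 to 0.312%) after that. At chr1:125180209, the highest of all, the score was 714. Domain membership was lower at the top, with 78 of the 100 in domains against 97.2% at ranks 1001 to 10000. In WT the 100 highest summits were at gene ends in 81 cases, and 2 had an EMBOW-F summit within 500 bp. That share did not fall steadily with rank in WT, and was 5.33% at ranks 101 to 1000, 1.04% at ranks 1001 to 10000 and 4.05% after that. Over the whole lists, 0.493% of EMBOW-F summits and 2.57% of WT summits had a summit of the other list within 500 bp.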

How the data were processed

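Summit lists of 3 ChIP-seq libraries of HEK293T cells were used. The submitters' processing notes list MACS2 2.2.7.1, Bowtie2 2.4.5, hg38 and deepTools 3.5.1 without roles or settings. The deposited value per summit was read as the −log10 q of MACS2 summit lists, because the lowest value in each list is just above 1.30. It was used only to rank or filter within a list, and to give the share of a list past a score. Depth is unknown. For the control used in each call, and for any pooling, the sources used here say nothing. The EMBOW-F list, a file of the whole series, was matched to the FLAG precipitation, the only ChIP of tagged EMBOW in the labels.

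Distances, host genes, 1 Mb bins, spacing and domains were computed (pandas 2.3.3, numpy 2.4.6, scipy 1.17.1 and matplotlib 3.10.9 under Python 3.11.15) against 19974 protein-coding genes of RefSeq GRCh38.p14. Where genes overlap, the longest was the host. Chromosome lengths are the largest coordinate seen. A gene end is a window of 1 kb around either end. The steps were tested on 400 simulated summits, all returned to their class. Genes were named by a fixed rule: the most summits, the highest density, the highest gene-end scores and the leading members of gene lists. Some genes that the rule names are not reported here. The 10 longest genes and the genes with both summits at a start were added. Members and lists were chosen with earlier results of these data known, and the length classes, promoter comparisons, score bands and domains after these lists had been seen. Shorter lists, stricter scores, autosomes, other gene sets, windows and bins were tried. The transcript list and the H3K4me3 and input libraries were not analysed here.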

Additional observations from a re-analysis of the deposited data

How the results depend on the processing

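Differences are EMBOW-F minus WT WDR5 in percentage points. With a −log10 q of 5 or more in both lists the gene-end difference went from −61.0 to −71.0, the gene-body difference from −8.88 to −7.96, the gene-free megabase difference from 30.8 to 40.3, the ratio of median distances to a gene end from 584 to 1077, the ratio of median spacings from 13.1 to 7.58 and the difference in summits within domains from 81.2 to 57.2. With the EMBOW-F list as long as the WT list these were −12.9 for gene bodies, 39.3 for gene-free megabases, 750 for the distance ratio, 4.71 for spacing and 53.4 for domains. Counting all genes gave −66.5 at gene ends, 0.441 for gene-free megabases and a reversed 8.88 for gene bodies. A gene-end window of 5 kb gave −75.7, bins of 500 kb gave 51.7, autosomes alone gave 31.4 for gene-free megabases, and the shortest host gene in place of the longest gave a host length ratio of 14.8 against 13.5. Domains linked at 20 kb and 100 kb gave 77.6 and 68.4. The cause of these moves was not tested. The other values stayed within the counting interval, or, for the count of chromosomes past 2-fold (12, and 10 of the autosomes), within 1.5 times. No paired analysis was possible because each list is 1 library. The lists hold no read counts, so what depth limits is unknown.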

Other observations

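Some long neuronal genes carried both kinds of summit, among them the 3 of the fixed list with the most WT WDR5 summits. PCDH9 (a protocadherin of neurons, 928 kb) held 7 WT WDR5, 7 KO WDR5 and 5 EMBOW-F summits. MAGI2 (a synaptic scaffold, 1437 kb) held 5 WT, 2 KO and 50 EMBOW-F summits. GPC5 held 3 WT, 4 KO and 216 EMBOW-F summits. In the megabase around SLITRK1 on chromosome 13, 19 WT and 6 KO summits stood beside 615 EMBOW-F summits, and with 1 library each this difference between WT and KO was not tested.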
